A study of Mus musculus with 6 samples.

Results

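The genes described here mostly encode subunits of oxidative phosphorylation, the 5 protein complexes of the mitochondrial inner membrane that pass electrons to oxygen and make ATP. They were chosen by symbol alone, as every gene whose name starts with Nduf, Uqcr, Atp5 or Cox4 to Cox8, together with Sdha, Sdhb, Sdhc and Sdhd. This gave 94 of the 19378 genes measured: 39 of complex I, 8 assembly factors of complex I (the Ndufaf genes, which share the prefix but encode no subunit of the finished complex), 4 of complex II, 8 of complex III, 18 of complex IV and 17 of complex V. The study mapped histone marks across tissue by laying sections on DNA arrays, where an antibody against the mark draws protein A-Tn5 to the marked chromatin and the cut fragments take up the barcodes of their array spot. All 6 sections came from mice, and each group was a single section. The whole embryo at E11.5, wild type, was profiled in 3 sections, for H3K4me3, H3K27ac and H3K27me3. The adult wild-type brain was profiled for H3K4me3. Adult paws, formalin-fixed, decalcified and embedded in paraffin, were profiled for H3K27ac at 42 days: 1 section came from an animal in which arthritis had been induced with collagen, and 1 from a control. No age in weeks, strain or sex is used here, and whole-embryo, brain and paw sections mix many cell types in each spot.

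Complex I takes electrons from NADH, complex II from succinate, complex III passes them to cytochrome c, complex IV to oxygen, and complex V uses the resulting proton gradient to make ATP. A small set of subunits of complexes I, III, IV and V is encoded in mitochondrial DNA, and the rest by nuclear genes such as those described here. These genes are active in nearly every cell type, mostly from promoters rich in CpG, and are known targets of the transcription factors NRF1, GABPA, YY1 and ERR. H3K4me3 marks active promoters and H3K27ac active promoters and enhancers, whereas H3K27me3 is laid down by Polycomb complexes on silent genes, so housekeeping genes of this kind are textbook carriers of the active marks. Some subunits exist in paralogous forms used in heart and skeletal muscle (Cox6a2, Cox7a1, Cox8b) or in testis (Cox6b2, Cox7b2, Cox8c).

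Levels are given as reads, recovered from the deposited signal and summed over the spots of a section, and as the percentile rank of that sum among all genes of the same section. The sections held 403483 (embryo H3K4me3) to 5981684 (control paw) reads in 248 to 1200 spots, and the median gene held 7, 12 and 14 reads for H3K4me3, H3K27ac and H3K27me3 in the embryo, 120 in the brain, 142 in the control paw and 274 in the arthritis paw. In the embryo 75 of 86, 66 of 92 and 58 of 91 members had fewer than 20 reads in the same order of marks, which limits what a single gene can show there. The tables of the brain and the arthritis paw list 11345 and 11130 genes and held 40 and 44 members, and 30 members were held by all 6 sections. Ranks there are among these fewer genes. No group had a replicate. Intervals, at 95%, are exact Poisson or binomial intervals that cover counting error alone. Neuron markers did not set the brain apart, with a median rank of 70.3 there, against 61.5 to 73.0 over the embryo sections, 65.5 in the control paw and 76.6 in the arthritis paw. Skeletal muscle markers were lowest in the brain, at 49.8, against 55.5 to 59.9 in the embryo and 58.4 and 61.6 in the control and arthritis paws.

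The promoter windows of 5 members show the range of sequences behind the results below: Cox6b1, the most read member; Uqcrh and Ndufaf8, which shared their reads with the gene on the other side of their start; Atp5o, which stood out under H3K27me3; and Cox8b, the member with fewest CpG. Each window runs from 250 bases before to 50 after the start (RefSeq, GRCm38.p6) and is written in the direction of transcription. Capitals mark matches, on either strand, to the 6 short motifs searched.
Cox6b1: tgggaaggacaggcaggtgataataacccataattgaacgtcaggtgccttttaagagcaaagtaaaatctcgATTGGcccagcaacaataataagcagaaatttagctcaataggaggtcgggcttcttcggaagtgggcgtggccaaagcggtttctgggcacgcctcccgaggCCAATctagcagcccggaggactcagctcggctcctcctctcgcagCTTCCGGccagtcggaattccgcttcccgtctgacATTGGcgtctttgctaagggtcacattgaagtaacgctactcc
Uqcrh: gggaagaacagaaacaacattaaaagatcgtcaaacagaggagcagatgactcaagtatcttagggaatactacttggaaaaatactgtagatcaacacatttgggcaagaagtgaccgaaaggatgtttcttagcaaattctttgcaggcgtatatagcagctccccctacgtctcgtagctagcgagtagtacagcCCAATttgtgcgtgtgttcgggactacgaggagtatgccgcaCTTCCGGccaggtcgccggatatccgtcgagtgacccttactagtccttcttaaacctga
Ndufaf8: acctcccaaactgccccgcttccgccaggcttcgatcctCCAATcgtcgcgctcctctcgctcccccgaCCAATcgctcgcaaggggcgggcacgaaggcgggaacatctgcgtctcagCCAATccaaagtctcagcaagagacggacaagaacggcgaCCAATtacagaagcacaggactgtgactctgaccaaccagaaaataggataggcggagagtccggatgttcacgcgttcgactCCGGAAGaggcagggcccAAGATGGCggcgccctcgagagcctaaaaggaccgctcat
Atp5o: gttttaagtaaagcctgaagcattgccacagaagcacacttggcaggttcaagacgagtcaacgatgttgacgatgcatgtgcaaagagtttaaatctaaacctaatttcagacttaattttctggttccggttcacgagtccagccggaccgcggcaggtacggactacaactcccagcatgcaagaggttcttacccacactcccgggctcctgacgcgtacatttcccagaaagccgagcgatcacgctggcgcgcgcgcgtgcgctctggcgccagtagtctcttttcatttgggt
Cox8b: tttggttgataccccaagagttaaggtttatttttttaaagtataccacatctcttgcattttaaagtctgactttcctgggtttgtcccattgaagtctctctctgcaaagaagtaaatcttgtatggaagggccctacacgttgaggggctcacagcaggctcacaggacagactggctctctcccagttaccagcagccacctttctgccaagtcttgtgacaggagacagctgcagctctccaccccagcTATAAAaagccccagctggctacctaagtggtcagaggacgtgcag
The windows lie at chr7:30626065-30626364 on the minus strand, chr4:116075021-116075320 on the minus strand, chr11:120098684-120098983 on the plus strand, chr16:91931581-91931880 on the minus strand and chr7:140900397-140900696 on the minus strand. They held 17, 15, 27, 22 and 2 CpG in that order.

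RefSeq windows were found for 76 of the 94 members. Their median number of CpG was 20, against 16 in 15337 windows of all genes, and the quartiles were 15 and 25 against 5 and 25. The NRF1 core GCGCATGC was found in 12 member windows (15.8%, against 4.07% of all windows), the ETS core CCGGAAG bound by GABPA in 18 (23.7% against 13.2%), the YY1 core AAGATGGC in 10 (13.2% against 3.49%) and the ERR core AAGGTCA in 8 (10.5% against 3.93%). The CCAAT box, searched as CCAAT, was in 34 (44.7% against 39.0%) and the TATA box, searched as TATAAA, in 8 (10.5% against 11.2%). Both strands were searched and no motif's letters contain those of another. Cox6b1 and Uqcrh each held the ETS core and the CCAAT box, Ndufaf8 the ETS core, the YY1 core and 4 CCAAT boxes, Cox8b the TATA box, and Atp5o none of these letters. Among all genes reads rose weakly with the number of CpG, with a Spearman rho of 0.13, 0.14 and 0.15 for H3K4me3, H3K27ac and H3K27me3 in the embryo, 0.11 in the brain, 0.22 in the control paw and 0.10 in the arthritis paw. Across members it was -0.02, -0.16 and -0.00 in the embryo (69, 74 and 73 genes), -0.12 in the brain (32), 0.05 in the control paw (76) and -0.00 in the arthritis paw (36). These are descriptions across genes of 1 library each.

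As a group the oxidative phosphorylation genes lay at or below the middle of every section, whatever the mark, without correction for gene length. In the embryo their median percentile rank was 45.4 (H3K4me3), 47.3 (H3K27ac) and 44.8 (H3K27me3); it was 33.7 in the brain, 42.6 in the control paw and 40.6 in the arthritis paw. The median of all genes lay between 47.9 and 50.1 and departs from 50 because genes of equal reads share a rank. In the embryo 39 of 86, 45 of 92 and 41 of 91 members lay above rank 50, and in the brain, control paw and arthritis paw 14 of 40, 37 of 94 and 14 of 44. Cox6b1 and Uqcrh, described below, held most member reads. Without them the members held, per gene, 0.566 (0.533 to 0.601) times the section mean under H3K4me3, 0.570 (0.542 to 0.600) under H3K27ac and 0.883 (0.852 to 0.915) under H3K27me3 in the embryo. The value was 0.565 (0.547 to 0.583) in the brain, 0.538 (0.529 to 0.546) in the control paw and 0.497 (0.487 to 0.506) in the arthritis paw. The higher value under H3K27me3 was that of Atp5o, which was left out next, a choice made after its values were seen. Without it the embryo values were 0.562 (0.5285 to 0.597), 0.572 (0.543 to 0.601) and 0.520 (0.496 to 0.545) in the same order of marks. The interval under H3K27me3 then overlaps those of both active marks.

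**Figure D1:**
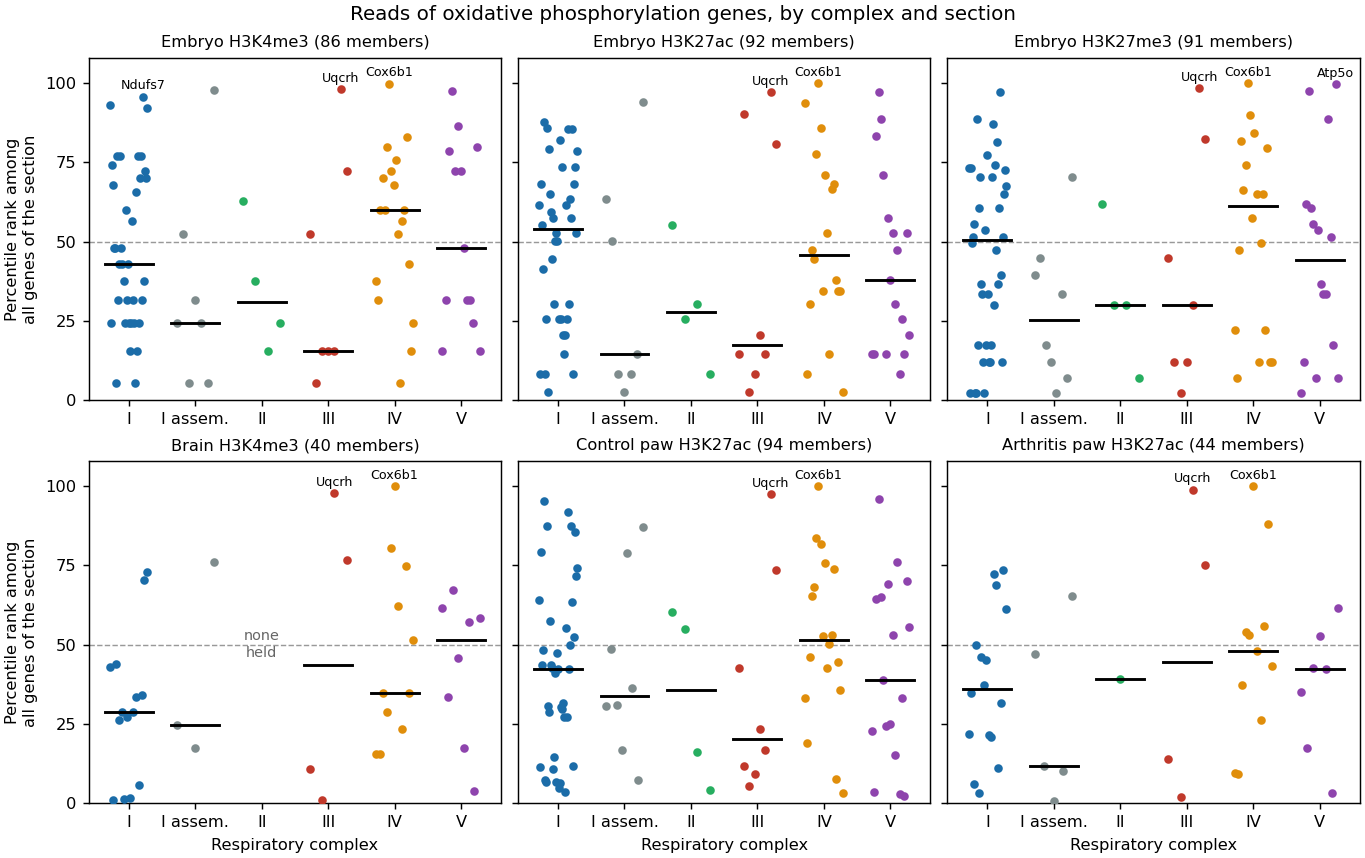
Percentile rank of each oxidative phosphorylation gene among all genes of its section, by respiratory complex. Each point is 1 gene and each black bar the median of its complex; the dashed line marks rank 50. Cox6b1 and Uqcrh lie near rank 100 in all 6 panels, and the median of complex III is lowest, at 15.5, in embryo H3K4me3.

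The order of the genes was broadly shared between sections. Over the 15 pairs of sections Spearman's rho of reads across members ran from 0.58 (embryo H3K4me3 and arthritis paw, 40 genes, against 0.61 over all genes held by both) to 0.86 (brain and control paw, 40 genes, against 0.76). It was 0.75 between H3K27me3 and H3K4me3 in the embryo (84 genes, against 0.70) and 0.68 between H3K27me3 and H3K27ac (89 genes, against 0.72). Between embryo and control paw, both for H3K27ac, it was 0.66 (92 genes, against 0.74). The members' value thus lay above that of all genes in some pairs and below it in others. Of the 89 members held by at least 4 sections, 4 were above rank 75 in every section that held them (Atp5d, Cox6b1, Ndufa4l2 and Uqcrh) and 11 were at or below rank 25 in each (Atp5a1, Atp5mpl, Cox8c, Ndufa10, Ndufa3, Ndufaf4, Ndufc1, Sdhd, Uqcrb, Uqcrc1 and Uqcrfs1). The ranks of 16 spanned more than 50 points, with Ndufs7 widest. Atp5d, Ndufa4l2 and Uqcrh had many of their reads in common with an adjacent gene, as given below. Across members the rho of reads with gene length was -0.11, -0.09 and -0.15 in the embryo, -0.24 in the brain, 0.01 in the control paw and 0.03 in the arthritis paw, whereas over all genes it was 0.14 to 0.19. The members were shorter than other genes, with a median length of 7228 bases against 19790 over all genes. No correction for length was made when ranks of genes are set side by side, and the part of length in the members' ranks was not tested.

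Complex I is the largest of the complexes, and its genes had median ranks of 42.9, 54.0 and 50.5 in the embryo (H3K4me3, H3K27ac, H3K27me3), 28.5 in the brain, 42.3 in the control paw and 36.1 in the arthritis paw. Among the catalytic core, Ndufv1, which binds NADH, held 15, 25 and 23 reads in the embryo, 179 in the brain, 425 in the control paw and 481 in the arthritis paw, at ranks of 64.9 to 85.5. Ndufs1, the largest core subunit, was far lower, with 2, 5 and 13 reads in the embryo and 78 in the control paw. These core subunits thus did not share a level. The accessory genes Ndufa3 (1, 2 and 1 reads in the embryo, 39 in the control paw and 92 in the arthritis paw) and Ndufa10 (3, 2 and 1 reads, and 47 in the control paw) stayed at or below rank 24.3. Ndufa4l2, a paralog of Ndufa4 that is induced by low oxygen, had 18, 42 and 64 reads in the embryo and 475 in the control paw. In the same sections 65.2%, 73.8%, 32.8% and 68.4% of reads were in common with the adjacent gene Shmt2. Ndufa4 itself, whose product was later assigned to complex IV, had 5 reads for H3K27ac and 1 for H3K27me3 in the embryo and 38 in the control paw, below Ndufa4l2 in all 3 sections that held both. In these sections 66.7%, 25% and 51.4% of reads were in common for Ndufa4 and its neighbour Phf14.

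Assembly factors of complex I had few reads in the embryo, with median ranks of 24.3, 14.4 and 25.3, and 33.6 in the control paw. The exception was Ndufaf8, which held 139 reads for H3K4me3, 81 for H3K27ac and 28 for H3K27me3 in the embryo, 203 in the brain, 468 in the control paw and 389 in the arthritis paw. It ranked 97.9 under H3K4me3 and 70.5 under H3K27me3 in the embryo. Ndufaf4, at the other end, had 1, 1 and 3 reads in the embryo, 57 in the control paw and 51 in the arthritis paw.

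Complex II, succinate dehydrogenase, also works in the citric acid cycle and was led in every section by Sdha, its flavoprotein. Sdha had 11, 14 and 21 reads in the embryo, 185 in the control paw and 219 in the arthritis paw, at ranks of 39.0 to 62.9. Sdhb, the iron-sulfur subunit, had 5, 5 and 7 reads in the embryo and 161 in the control paw. The membrane anchors were lower, with 2, 6, 7 and 56 reads for Sdhc and 3, 2, 2 and 32 for Sdhd in the same sections. The brain table held none of the 4 and the arthritis table Sdha alone.

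Complex III was the lowest of the complexes in the embryo under H3K4me3, with a median rank of 15.5, and had median ranks of 17.4 and 30.0 under H3K27ac and H3K27me3 and of 20.0 in the control paw. Its core proteins were near the bottom. Uqcrc1 had 2, 2 and 3 reads in the embryo, 43 in the control paw and 68 in the arthritis paw. Uqcrc2 had 2, 4 and 7 reads in the embryo and 70 in the control paw. Uqcrfs1, the Rieske iron-sulfur protein, had 2 and 3 reads under the active marks of the embryo, 27 in the brain and 57 in the control paw. Uqcrb had 1 read in each embryo section. Standing apart were Uqcrq, a small subunit with 15, 33 and 45 reads in the embryo, 206 in the brain, 269 in the control paw and 498 in the arthritis paw (ranks 72.3 to 82.4), and Uqcrh, the acidic hinge protein, which is described below with its array row. Uqcrq had 57.6% (embryo H3K27ac) to 81.9% (arthritis paw) of reads in common with the adjacent gene Gdf9, so its ranks are not those of Uqcrq alone. Cyc1, the haem-bearing catalytic subunit of complex III whose symbol is outside the rule, had 8, 11 and 51 reads in the embryo, 71 in the brain, 123 in the control paw and 183 in the arthritis paw.

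Complex IV, cytochrome c oxidase, had median ranks of 59.9, 45.9 and 61.1 in the embryo, 34.6 in the brain, 51.4 in the control paw and 47.8 in the arthritis paw. It held the member with by far the most reads. Cox6b1, a small subunit on the intermembrane side, had 2111 reads for H3K4me3, 2566 for H3K27ac and 3476 for H3K27me3 in the embryo, 7595 in the brain, 16208 in the control paw and 15248 in the arthritis paw. All 6 sums are lower bounds. By recovered reads Cox6b1 stood at places 11, 5 and 4 among the genes of the embryo sections, 3 in the brain, 7 in the control paw and 3 in the arthritis paw, and it alone took 49.0% to 63.2% of all member reads. Its reads lay in 90.1% (brain) to 100% (embryo H3K27me3 and arthritis paw) of spots. They rose with the reads of the spot, with a Spearman rho across spots of 0.86 to 0.95 in the 6 sections, at a median of 5.32, 4.79 and 4.97 per 1000 reads in the embryo, 3.73 in the brain, 2.81 in the control paw and 2.94 in the arthritis paw. Because these sums are lower bounds, the rates cannot show whether Cox6b1 was as strong under the repressive mark as under the active marks. Nor can the rise with the reads of the spot be told apart from the limit of the recovery. No adjacent gene held the reads of Cox6b1: the gene sharing most was Zbtb32, Rbm42 or Hspb6, with 0.740% to 4.72% of reads in common.

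Complex V, ATP synthase, had median ranks of 47.9, 37.9 and 44.0 in the embryo, 51.5 in the brain, 38.9 in the control paw and 42.3 in the arthritis paw. The catalytic head was low: Atp5b, the beta subunit, had 4, 3 and 3 reads in the embryo and 31 in the control paw, and Atp5a1, the alpha subunit, 2, 3, 1 and 69. Atp5c1, the gamma subunit, was higher, with 19, 37 and 21 reads in the embryo and 206 in the control paw. Atp5d, the delta subunit of the central stalk, had 126, 147 and 228 reads in the embryo and 1090 in the control paw, at ranks of 95.9 to 97.7. The reads of Atp5d were largely those of Cbarp, whose start lies 2908 bases away head to head: Cbarp had 133, 149 and 259 reads in the embryo and 1090 in the control paw, with 93.2%, 97.3%, 85.3% and 95.6% in common. The high ranks of Atp5d cannot be told apart from those of this neighbour.

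Many members had the same reads as an adjacent gene, spot by spot. Reads shared by a pair were counted as the smaller of both numbers in each spot, summed and divided by the larger total. Over all gene pairs of the control paw the median share was 82.9% where the starts lay under 300 bases apart (625 pairs), 71.2% at 2000 to 3000 bases, 29.0% at 5000 to 7500 bases and 13.8% at 10000 to 20000 bases (2472 pairs). The share thus fell with the distance between starts over several kilobases. In the control paw 39 of 94 members shared at least 50% of their reads with a neighbour, 18 at least 90%, and 6, each with at least 10 reads, had the same number in every spot. In the embryo 32 of 86, 36 of 92 and 33 of 91 members shared at least 50%, for H3K4me3, H3K27ac and H3K27me3. Ndufaf8 and Tepsin, head to head with starts 203 bases apart, had 468 reads each in the control paw with no spot of 554 differing, and 139, 81 and 28 each in the embryo. Uqcrh and Lrrc41, 199 bases apart, had 1574 and 1575 reads and differed in 1 spot. Sdhd and Timm8b, 52 bases apart, had 32 reads each, and Sdha and Ccdc127, 77 bases apart, 185 and 193. The same held for Ndufa2 and Ik (987 each), Ndufa7 and Rps28 (171 each), Ndufa1 and Rnf113a1 (203 each), Ndufs3 and Kbtbd4 (117 and 120), and Atp5j and Gabpa (153 and 147), the last a pair of a subunit gene and a regulator of this family. For these genes the mark on the member cannot be told apart from that on its neighbour. Other members named here also had reads in common: Atp5pb with Wdr77 (90.8%), Ndufs6 with Mrpl36 (88.2%) and Ndufaf1 with H3f3c (75.6%). The share was 77.1% for Uqcrq and Gdf9 and 68.4% for Ndufa4l2 and Shmt2. Such common reads cannot be assigned to the member or to its neighbour. In the brain and arthritis tables only 4 of 40 and 7 of 44 members shared at least 50%, where many neighbours were not among the genes held.

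**Figure D2:**
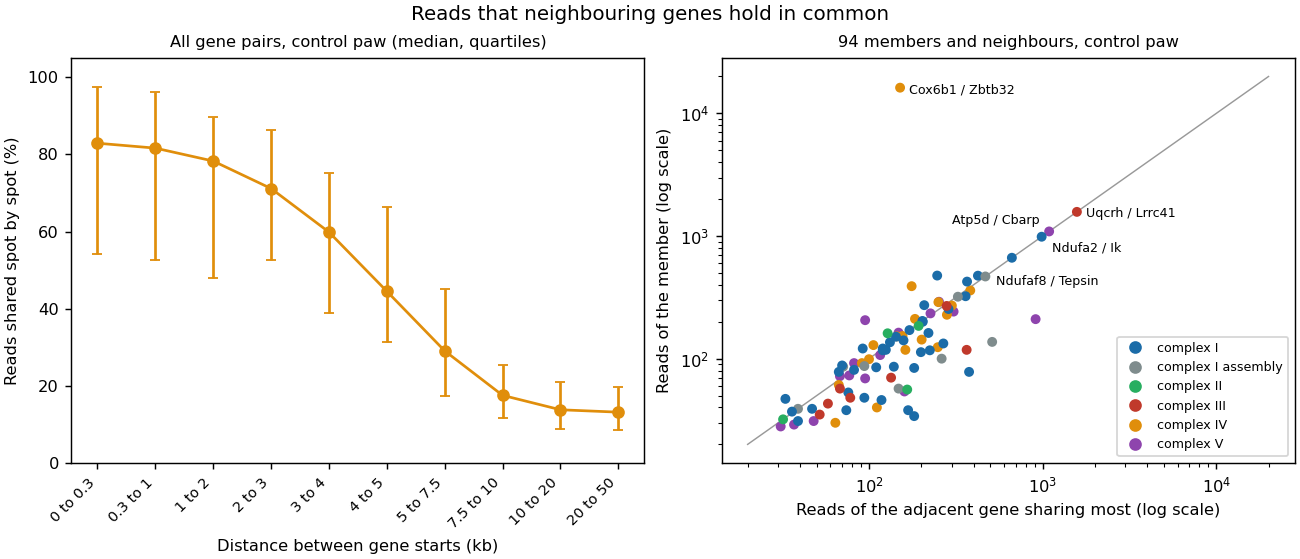
Reads that adjacent genes hold in common in the control paw H3K27ac section. Left, share of reads in common (%) against the distance between gene starts (kb) for all gene pairs, points being medians and bars quartiles, falling from 82.9% under 0.3 kb to 13.1% at 20 to 50 kb. Right, reads of each of the 94 members against those of the adjacent gene sharing most (log axes), coloured by complex, where shared pairs lie on the grey line of equal reads and Cox6b1 far above it.

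Uqcrh ranked 97.3 to 99.0 in all 6 sections, but its reads were uneven over the array. It had 167, 147 and 311 reads in the embryo, 652 in the brain, 1574 in the control paw and 3433 in the arthritis paw, and the embryo and control paw sums are lower bounds. In the embryo 46.1% (H3K4me3), 12.9% (H3K27ac) and 45.7% (H3K27me3) of its reads lay in array row 48, which held 4.80%, 1.43% and 5.17% of all reads. In the paws 11.7% (control) and 3.32% (arthritis) lay in array row 56, against 1.24% and 0.668% of all reads. Its rate in that row was 3.98, 2.41 and 3.66 per 1000 reads in the embryo and 2.48 and 3.19 in the control and arthritis paws. No row of the brain exceeded 0.936. Without row 48 or 56 Uqcrh kept 90, 128 and 169 reads in the embryo, 1390 in the control paw and 3319 in the arthritis paw, and still ranked 96.6, 96.8, 96.8, 97.3 and 98.9. Its high rank therefore did not rest on that row, though the height of its reads in the embryo did in part. Of members with at least 20 reads, the row held more than 3 times its share of reads also for Cox6a2 (H3K4me3), for Cox6a2, Cox6b2, Cox7a1, Cox7b, Ndufv1 and Uqcrq (H3K27ac, 1 to 6 reads each in the row) and for Atp5d (H3K27me3) in the embryo, for Cox7a1 and Ndufs1 in the control paw and for Cox6a2 in the arthritis paw.

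**Figure D3:**
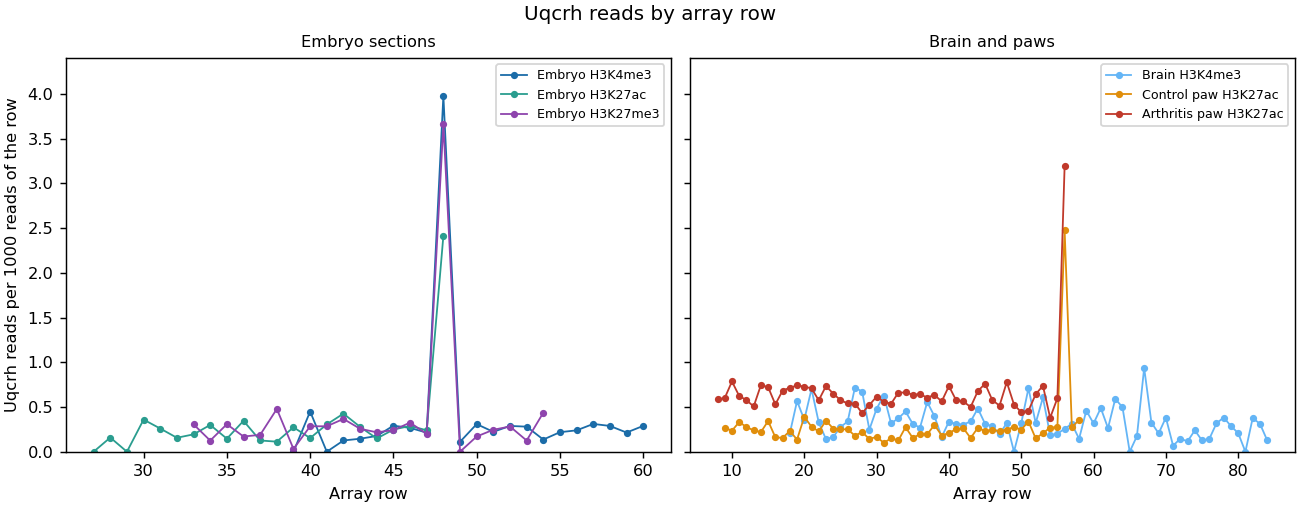
Uqcrh reads per 1000 reads of each array row, for the embryo sections (left) and for the brain and paws (right), each point being 1 row. Row 48 in the embryo (2.41 to 3.98) and row 56 in the paws (2.48 and 3.19) stand above the other rows, and the brain has no such row.

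The remaining members were compared over the tissue as a share of reads. Without Cox6b1 and Uqcrh, member reads made up 0.263% (0.248 to 0.280), 0.271% (0.257 to 0.285) and 0.413% (0.398 to 0.427) of reads in the embryo, 0.189% (0.183 to 0.195) in the brain, 0.255% (0.251 to 0.259) in the control paw and 0.187% (0.184 to 0.191) in the arthritis paw. All shares here sum over the members held, which were 84, 90 and 89 in the embryo, 38 in the brain, 92 in the control paw and 42 in the arthritis paw. Shares of the brain and arthritis paw are therefore not like for like with the others, and values per gene are given above. Without Atp5o as well the share was 0.258% (0.243 to 0.274) for H3K4me3, 0.269% (0.255 to 0.283) for H3K27ac and 0.240% (0.229 to 0.252) for H3K27me3. The higher share under H3K27me3 thus came from 1 gene. Without it the intervals of H3K27me3 and H3K4me3 overlap, so no order of these marks is shown. Those of H3K27me3 and H3K27ac lay just apart, at up to 0.252% and from 0.255%. The members summed differ between these sections, and the intervals per gene given above overlap. When sections were divided into 4 blocks of the array, the share ranged from 0.242% to 0.274% over the blocks for embryo H3K4me3, from 0.248% to 0.288% for H3K27ac and from 0.395% to 0.429% for H3K27me3, with overlapping counting intervals. It ranged from 0.182% to 0.193% in the brain, from 0.2502% to 0.2595% in the 3 blocks of the control paw that held spots, and from 0.185% to 0.196% in the arthritis paw. Single array rows were less even. Among rows with at least 10000 reads the share under H3K27me3 ran from 0.338% (0.294 to 0.388) in row 46 to 0.571% (0.501 to 0.649) in row 50, whose intervals do not overlap. Row 50 held 9.51% of the Atp5o reads and 5.49% of all reads. Without Atp5o the rows ran from 0.184% (0.152 to 0.221) to 0.291% (0.240 to 0.350), the highest being row 48. The lowest and highest rows also had intervals apart in the brain, at 0.0919% (0.0503 to 0.154) in row 59 and 0.238% (0.193 to 0.289) in row 62. Odd rows of the brain held fewer reads than the even rows beside them, and rows 59 and 62 held 15227 and 41636. The part of this alternation was not tested. In the arthritis paw the lowest and highest rows had 0.154% (0.132 to 0.179) and 0.235% (0.197 to 0.279), also apart. These are the extremes of 55 rows in the brain and 49 in the arthritis paw. With Cox6b1 and Uqcrh the shares were 0.828%, 0.765%, 0.918%, 0.594%, 0.553% and 0.537% of the sections.

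Forms of a subunit kept for muscle or testis had more reads than their common partners in most sections in several sets, though embryo counts were small. Cox6a2, the form of heart and skeletal muscle, had more reads than the common form Cox6a1 in 5 of 6 sections, with 20, 29 and 32 against 10, 10 and 24 in the embryo, 229 against 79 in the brain, 390 against 228 in the control paw and 292 against 298 in the arthritis paw. Of the 20 reads of Cox6a2 under H3K4me3 in the embryo, 6 lay in array row 48. Cox7a1, also of muscle, exceeded Cox7a2 in 5 of 6 sections, with 17, 23 and 50 against 8, 13 and 23 in the embryo, 197 against 89 in the brain and 289 against 118 in the control paw. In the arthritis paw Cox7a2 was higher, at 868 against 311. Cox7b2, of testis, exceeded Cox7b in the 4 sections that held both (10, 21, 23 and 271 reads against 9, 20, 14 and 153). In these sections 100%, 85%, 87.5% and 86.5% of reads were in common for Cox7b and its neighbour Magt1, so the reads of Cox7b cannot be assigned to it alone. The difference between 10 and 9 or between 21 and 20 is within counting error. Other embryo differences of Cox6a2, Cox7a1 and Cox7b2, such as 20 against 10, 32 against 24 or 17 against 8, were not tested. The tallies of sections therefore do not show an order of these forms in the embryo. Cox6b2, of testis, was under Cox6b1 everywhere but still had 15, 42 and 71 reads in the embryo, 151 in the brain, 360 in the control paw and 263 in the arthritis paw. The pattern was opposite for the others. Cox4i2, a form of lung, was under Cox4i1 in the 4 sections with both, Cox8c, of testis, under Cox8a in 4 of 4, and Cox8b, of muscle, under Cox8a in 3 of 4 and equal to it in embryo H3K27ac (7 reads each). Some of these differences are also within counting error. In embryo H3K4me3 Cox4i2 had 4 reads against 5 for Cox4i1, and Cox8c 3 against 6 for Cox8a. In embryo H3K27ac Cox4i2 had 2 against 77, where the reads of Cox4i1 were largely those of Emc8. Of the genes for the membrane ring of ATP synthase, which encode 1 mature protein, Atp5g1 was higher than Atp5g3 in the 3 embryo sections (28, 23 and 17 against 15, 15 and 16) and lower in the brain (87 against 167), control paw (107 against 234) and arthritis paw (133 against 236). The difference between 17 and 16 is within counting error, and those between 28 and 15 and between 23 and 15 were not tested. Atp5g2 had 3 and 2 reads in the embryo and 72 in the control paw. The part of muscle in these values, whose markers are given above, was not tested.

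**Figure D4:**
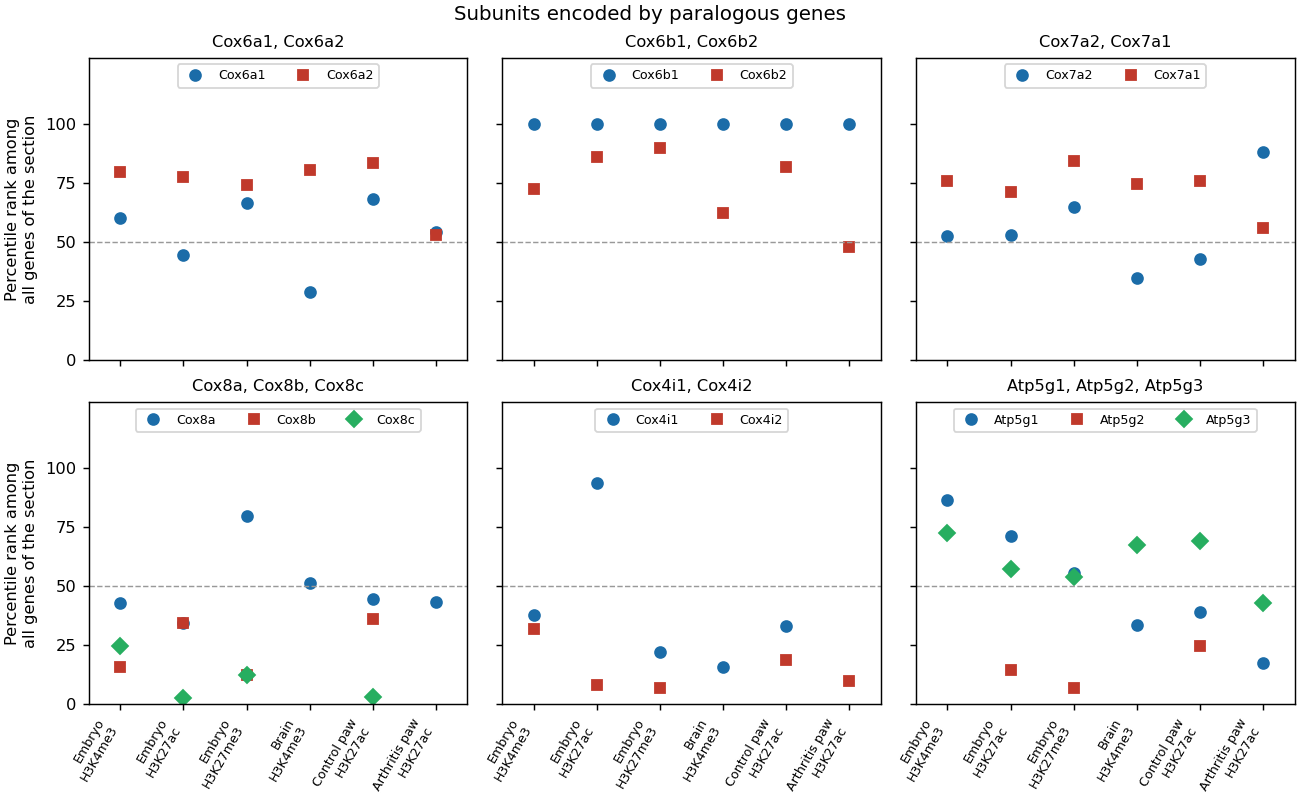
Percentile rank among all genes of the section for 6 sets of paralogous subunit genes, 1 point per gene and section; a missing point is a gene the section's table did not hold, and the dashed line marks rank 50. Cox6a2 lies above Cox6a1 and Cox7a1 above Cox7a2 in 5 of 6 sections, and Cox4i1 reaches rank 93.8 in embryo H3K27ac alone.

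The embryo sections address how a repressive and the active marks divide the genes. Levels relative to the section mean were compared as log2 ratios after adding 0.1, and a ratio past 2-fold (1 on the log2 scale) was counted. Between H3K27me3 and H3K27ac the 89 members held by both had a median of -0.17, against -0.12 over all 18653 genes. Of these members 6 were 2-fold higher under H3K27me3, where 10.4% of all genes were, and 12 were 2-fold lower, where 14.1% were. The members' shares were 6.74% and 13.5%. With at least 20 reads in both sections together, 6 of 52 members were higher (14.3% of all genes) and 9 lower (17.3%). Atp5o, which joins the head of ATP synthase to its outer stalk, led by far, with 1293 reads under H3K27me3 (a lower bound) against 13 under H3K27ac and 20 under H3K4me3. Its log2 ratios were 5.90 and 4.99, and 6.19 (5.41 to 7.10) and 5.14 (4.50 to 5.85) without the pseudocount. Its reads lay in 97.6% of the 254 spots and no adjacent gene shared more than 5.03% of them. In the brain, control paw and arthritis paw Atp5o had 140, 242 and 353 reads, at ranks of 58.4 to 70.2. Ndufs5, an accessory subunit of complex I, followed with 196 reads against 15 and 18 (log2 ratios of 3.03 and 2.43), then Ndufb8, with 58 against 4 and 4, which shared 86.2% of its reads with Sec31b, Atp5k, with 64 against 11 and 4, and Cox8a, with 40 against 7 and 6.

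Highest under H3K27ac relative to H3K27me3 were Cox4i1, Uqcr11 and Ndufb5. Cox4i1, the main regulatory subunit of cytochrome c oxidase, had 77 reads for H3K27ac and 5 for each other mark, and its neighbour Emc8 had 78. Uqcr11, a small subunit of complex III, had 55 reads against 3 under H3K27me3 and was not held by the H3K4me3 table (log2 ratio of -3.50 for H3K27me3 over H3K27ac). Ndufb5 had 35 reads, as did its neighbour Mrpl47, which encodes a mitochondrial ribosomal protein, against 3 under H3K27me3, and was not held by the H3K4me3 table either. Ndufs6, with 41 reads for H3K27ac against 4 for H3K4me3 and 10 for H3K27me3, was higher under H3K27ac than under both. Its neighbour Mrpl36 had 39 reads for H3K27ac, with 92.7% in common.

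Between H3K27me3 and H3K4me3 the 84 members had a median of -0.13, against 0.08 over 17837 genes. Here 8 were 2-fold higher under H3K27me3, where 15.1% of all genes were, and 7 lower, where 10.4% were. With at least 20 reads together, 7 of 47 were higher (21% of all genes) and 6 lower (13.3%). Scaled to the section median, 9 were higher (17% of all genes) and 14 lower (17.1%). The lowest was Ndufs7, the core subunit that carries the last iron-sulfur cluster before the quinone, with 77 reads under H3K4me3 against 3 under H3K27me3 and 2 under H3K27ac (log2 ratios of -4.35 and -4.40 relative to H3K4me3). Its 77 reads lay in 65 of 248 spots and no adjacent gene shared more than 9.09% of them. Ndufaf8 (139 against 28, log2 ratio -3.01), Cox7c, a small subunit of complex IV (23 against 5), Ndufv3, an accessory subunit (44 against 25), and Atp5g1 (28 against 17) also leaned to H3K4me3. The ratio of Atp5g1, -1.39, was -0.79 with the deposited values.

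Between the active marks, H3K27ac and H3K4me3, the median of 84 members was 0.03, against 0.20 over 17762 genes. There were 8 members 2-fold higher under H3K27ac, where 17.8% of all genes were, and 7 lower, where 9.17% were. With at least 20 reads together, 7 of 45 were higher (23.3% of all genes) and 5 lower (12.5%). Scaled to the section median, 7 were higher (17% of all genes) and 13 lower (15.1%). Cox4i1 (3.03), Ndufs6 (2.38), Ndufa2 (1.98, 46 reads against 7), Ndufa6 (1.61, 31 against 6) and Ndufaf1 (1.57, 18 against 3) leaned to H3K27ac. Under H3K27ac 97.8% of reads were in common for Ndufa2 and Ik, and 83.3% for Ndufaf1 and H3f3c. Ndufa1, with 17 reads against 48, lay at -1.75, and at -0.93 with the deposited values, and Cox6c, with 7 against 13, at -1.03. Because each mark was measured in 1 section, and these 3 comparisons share their sections, differences between marks and between sections cannot be told apart.

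**Figure D5:**
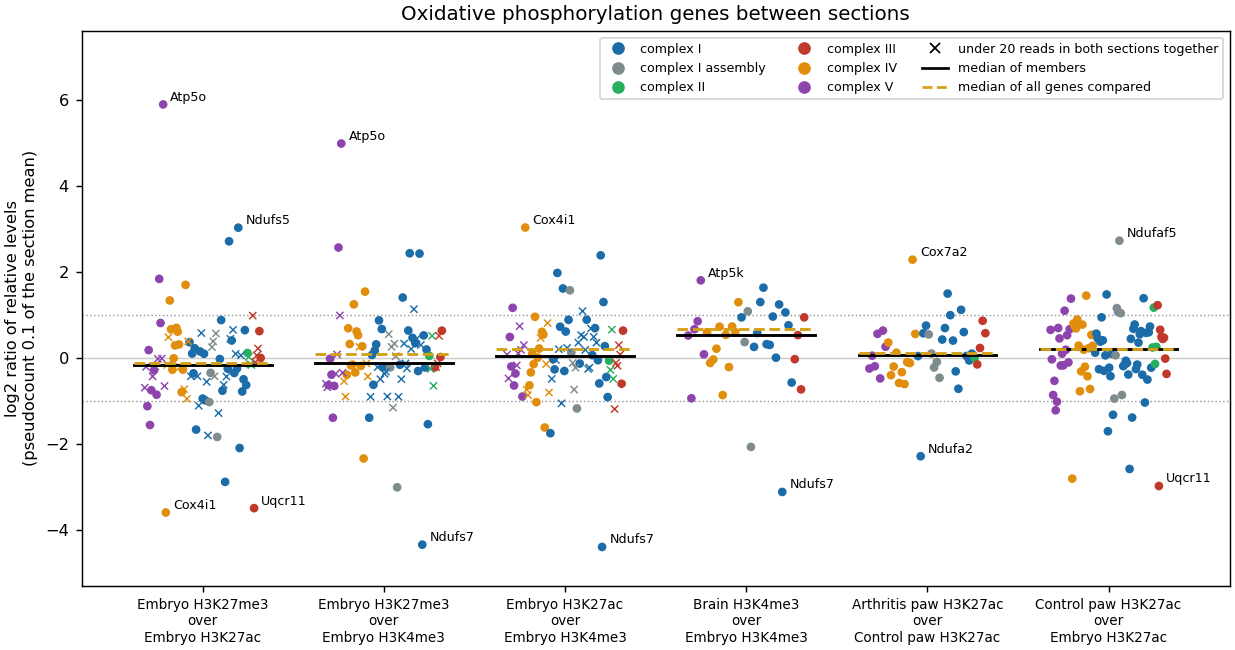
log2 ratios of relative levels of oxidative phosphorylation genes in the 6 comparisons, 1 point per gene and coloured by complex, crosses being genes with under 20 reads in both sections together. Black bars are medians of the members and dashed bars medians of all genes compared, which lie within 0.21 of each other; dotted lines mark 2-fold.

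Between brain and embryo, both for H3K4me3, the comparison sets a mature tissue against a developing whole body. The 38 members held by both had a median log2 ratio of 0.53, against 0.66 over 11127 genes. Of these 7 were 2-fold higher in the brain, where 31.4% of all genes were, and 2 lower, where 5.72% were. Among genes with at least 20 reads in both sections together these shares of all genes were 31.5% and 5.73%, with the same 7 and 2 members. Values are read relative to the 0.66 of all genes. With levels scaled to the section median in place of the mean, 2 members were higher, where 12.7% of all genes were, and 6 lower, where 12.5% were. Highest were Atp5k, a subunit of the ATP synthase membrane part, at 1.80 (137 reads against 4, and 0.13 with the deposited values), Ndufb4c at 1.63 (79 against 2), Ndufb4 at 1.30 (75 against 3), Cox8a at 1.29 (123 against 6) and Ndufs6 at 1.24 (87 against 4). Their embryo counts are so small that, without the pseudocount, the interval for Atp5k ran from 0.99 to 4.28. Calls of Cox8a, Ndufb4 and Ndufs6 ended under median scaling (0.78, 0.94 and 0.81). In the brain Ndufs6 had 93.1% of its reads in common with Mrpl36. Lower were Ndufs7 at -3.12 (42 against 77) and Ndufaf8 at -2.07 (203 against 139). Uqcrh lay at -0.73, and at 0.07 without row 48.

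The arthritis and control paws, both for H3K27ac, were 1 section each, with a median of 5296 and 10114.5 reads per spot. Differences due to disease, animal, section or depth cannot be told apart here, and the intervals cover counting error alone. The 44 members held by both had a median log2 ratio of 0.07, against 0.11 over 11130 genes, with 3 members 2-fold higher in arthritis, where 11.6% of all genes were, and 1 lower, where 7.88% were. Complex medians were 0.41 for complex I (16 genes), 0.40 for complex III (4), 0.05 for complex V (7) and -0.12 for complex IV (11). Cox7a2, the common form of its subunit, was highest at 2.28, with 868 reads against 118, and 2.63 (2.35 to 2.92) without the pseudocount. It was the third member by reads in the arthritis paw, where its reads lay in 56.2% of spots, against 18.2% in the control. Ndufb5 lay at 1.49 (211 against 37), with the reads of Mrpl47 in both paws, and Ndufs4, an accessory subunit required for a stable complex I, at 1.12 (419 against 141). Lowest was Ndufa2, with 201 reads against 987, at -2.29. Its control reads, which were those of Ik, lay to 42.2% in array columns 1, 5, 9 and so on, which held 12.9% of all reads. Without these columns the ratio was -1.79. No other member was past 2-fold, and Cox6b2, Cox6a2 and Atp5k lay at -0.61, -0.59 and -0.48. Of 11 markers of myeloid cells, all held in the control, 6 were held in arthritis, with none at 0. These 6 had a median log2 ratio of -0.19, against 0.11 over all genes. Of them 0 were 2-fold higher in arthritis, where 11.6% of all genes were, and 1 lower, where 7.88% were. The part of myeloid cells in the values of the members was not tested.

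Control paw and embryo, both for H3K27ac, differ in tissue, age and fixation. The 92 members had a median log2 ratio of 0.21, against 0.20 over 18943 genes, with 11 members 2-fold higher in the paw, where 14.1% of all genes were, and 9 lower, where 8.64% were. Among genes with at least 20 reads together the shares of all genes were 14.1% and 8.65%. Assembly factors of complex I had the highest median, 1.04 (7 genes, 4 past 2-fold). Ndufaf5 led at 2.73, with 320 reads against 2, and its neighbour Esf1 had 325. Ndufa5 (1.47, 86 against 1), Cox7a2l, which links complexes III and IV (1.45, 143 against 3), Ndufs5 (1.39, 476 against 15) and Atp5pb (1.38, 163 against 4) followed. Without columns 1, 5, 9 and so on, which held 44.1% and 41.7% of the control reads of Cox7a2l and Atp5pb, their ratios were 0.95 and 0.91. In the control paw 90.8% of reads were in common for Atp5pb and Wdr77, and 61.9% for Ndufa5 and Asb15. Lowest were Uqcr11 at -2.98 (48 against 55), Cox4i1 at -2.81 (92 against 77) and Ndufb5 at -2.59 (37 against 35). These are the genes highest for H3K27ac over H3K27me3 in the embryo, and both comparisons share that section.

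Other genes of mitochondrial metabolism had median ranks on either side of those of the members. Assembly factors of complexes II to V, 26 genes of which 11 to 26 were held, had median ranks of 44.7 to 50.1 in the embryo, 42.2 in the control paw and 56.4 in the arthritis paw. Citric acid cycle enzymes, 18 genes, had median ranks of 47.9 for H3K4me3 in the embryo, 30.6 in the brain, 44.3 in the control paw and 25.8 in the arthritis paw. Pdha1, of pyruvate dehydrogenase, led that list in the control paw with 11578 reads. Mitochondrial carriers and porins, 10 genes, had median ranks of 30.9 to 66.8, led by the uncoupling protein gene Ucp3 in the embryo for H3K4me3 (139 reads), in the brain (176) and in the arthritis paw (889). Regulators of mitochondrial biogenesis, 15 genes of which Tfb1m was at 0 for H3K27me3, had median ranks of 34.6 to 61.4, led in 5 sections by Esrrg, an orphan nuclear receptor of this pathway, with 87 and 224 reads for H3K27ac and H3K27me3 in the embryo, 668 in the brain, 1348 in the control paw and 4906 in the arthritis paw. Their lowest members were Tfb1m, Pprc1, Yy1 or Polrmt. Glycolytic enzymes, which make ATP in the cytosol, ranked higher, with medians of 75.7, 76.2 and 76.6 in the embryo, 69.2 in the brain, 78.1 in the control paw and 66.5 in the arthritis paw, led by Gapdh, Eno3, Aldoc, Aldoa, Pfkl and Eno3 in that order. The oxidative phosphorylation genes lay below them in each section, at 33.7 to 47.3. No test of this difference was possible with 1 section per group, and gene length was not corrected for.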

How the data were processed

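The authors deposited, per section, a table of quantile-normalised signal values per gene and array spot. The submitters' processing notes name the tools Bowtie2, featureCounts and MACS2 and the builds hg19 and mm9; which step used which is not given in the sources used here. Within a spot the deposited values follow one fixed gene order among genes of equal reads, and reads per spot were recovered from where that order restarts (92.9% to 95.4% of the total that the deposited values' common list gives). A read number held by fewer than 5 genes ended the exact zone, and a sum with over 10% of its reads beyond it is a lower bound. Recovery and ratios were tried on data simulated from the arthritis paw and embryo H3K27me3 sections. There genes of equal reads were ranked in the same fixed order that the recovery assumes, so the simulation cannot test that assumption. Summed over spots, recovered reads equalled that list exactly at 98.8% and 99.1% of ranks in the control and arthritis paws, but at 37.4% (brain) to 51.6% in the others; within 1% they agreed at 99.6% of ranks in the brain and at 51.0% to 83.8% in the embryo. Relative levels, ranks and log2 ratios (pseudocount 0.1) were computed in Python 3.11.15 with pandas 2.3.3 and SciPy 1.17.1. Symbols, promoters and start distances came from RefSeq GRCm38.p6, by symbol. Named genes were the 5 highest and 3 lowest members per section, the 5 highest and 5 lowest ratios per comparison with at least 20 reads, and fixed paralogs, core subunits and Sdh genes; members with shared reads or uneven positions were chosen after their values were seen. Members and lists were chosen with earlier results of these data known. The values of 1 member that this rule names are not reported here.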

Additional observations from a re-analysis of the deposited data

How the results depend on the processing

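Median ranks of the members stayed below 48 under every alternative tried: deposited values, even or odd columns, equal weight per spot, array row 48 or 56 left out, columns 1, 5, 9 and so on left out in the paws (chosen after seeing the data), lower-bound members left out, and members sharing a neighbour's reads left out. No paired analysis was possible because each group is 1 section. The difference between the members' and all genes' median log2 ratio moved most for embryo H3K27me3 over H3K4me3, from -0.21 to -0.31 with a pseudocount of 0.01. Counts of members past 2-fold moved by over 1.5 times with the pseudocount or scaling. Over all alternatives the higher and lower counts ranged from 3 to 10 (main 6) and 4 to 23 (12) for embryo H3K27me3 over H3K27ac, from 4 to 17 (8) and 2 to 14 (7) for H3K27me3 over H3K4me3, and from 1 to 15 (8) and 2 to 13 (7) for H3K27ac over H3K4me3. They ranged from 0 to 11 (7) and 1 to 6 (2) for brain over embryo, from 1 to 5 (3) and 0 to 1 (1) for arthritis over control, and from 0 to 20 (11) and 2 to 13 (9) for control paw over embryo. With the deposited values Ndufb5 (arthritis over control) lay just under the 2-fold limit and Atp5pb (control paw over embryo) at 0.93. The cause of these shifts was not tested.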
